A study of Mus musculus with 2 samples.

Results

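Close runs of Zfp217 peaks are places where the peak list of mouse CCE embryonic stem cells holds 2 or more peaks in a row, each separated from the next by no more than 500 bp. Runs were taken on chromosomes 1 to 19. A run was kept where the midpoint of its first peak lay in a fixed 1 Mb bin of fewer than 30 peak midpoints. This gave 1443 runs, which hold 3032 of the 18737 peaks in the list. They are 20.8% of the 14592 peaks that such bins hold on these chromosomes. The 11560 single peaks of such bins, which have no other peak within 500 bp on either side, served as the comparison. Another 3449 peaks on these chromosomes belonged to the 82 bins of 30 peaks or more and were set aside.

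The study mapped Zfp217 binding by ChIP-seq, in which chromatin bound by a protein is precipitated with an antibody and its DNA is sequenced. CCE is an established mouse embryonic stem cell line, grown on gelatin in serum with leukemia inhibitory factor (LIF) and no feeder layer. The series has 1 library precipitated with a Zfp217 antibody and 1 input library, which is chromatin of the same line. Both came from untreated cells, and no genetic change is named for either. The authors' 1 peak list gives the chromosome, start and end of each peak on the build mm9. No height, score or probability stands beside the peaks, read depth is unknown, and no value of the input could be set against a run. The spread between replicates could not be measured, because 1 immunoprecipitation was analysed here.

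Zfp217 is a C2H2 zinc finger protein found in corepressor complexes with CtBP and CoREST, together with the histone demethylase LSD1 and histone deacetylases. In embryonic stem cells it is known for its part in keeping the cells pluripotent. A ChIP-seq peak is a stretch where more fragments were read than a background model allows. A factor that occupies neighbouring sites can give separate peaks, and a peak caller can also divide 1 wide stretch where the signal dips. These cannot be told apart from positions alone. No annotation of mm9 was used here, so runs are named by position, and the genes, exons or introns they lie in are not given.

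The runs were chosen by gap length, so their number, gaps and spans are given as a description without a test. Widths also enter a gap, which is measured from the end of one peak to the start of the next. All intervals below are 95% intervals, exact Clopper-Pearson for shares and from order statistics for medians. They take peaks as independent and cover counting error only.

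Most runs were pairs. Exactly 2 peaks made up 1316 of the 1443 runs (91.2%, 89.6 to 92.6). A further 111 runs held 3 peaks (7.69%, 6.37 to 9.19), 13 held 4 peaks and 3 held 5 peaks, the most in any run. Runs of 3 or more peaks were thus a small share of these regions, and none had more than 5 peaks.

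Gaps inside the runs were mostly far shorter than the limit of 500 bp. Their median was 151 bp (143 to 158, n = 1589 gaps), and the middle 50% lay between 94 and 246 bp. The shortest gap was 52 bp, so no gap of 50 bp or less exists among these peaks. Gaps over 50 and up to 100 bp were the most numerous class of 50 bp among those listed here, with 460, followed by 334 over 100 and up to 150 bp and 246 over 150 and up to 200 bp. Counts fell more slowly after that. There were 73 gaps over 400 and up to 450 bp, 56 over 450 and up to 500 bp, 43 over 500 and up to 550 bp and 42 over 550 and up to 600 bp. The counts thus still fell across the limit of 500 bp, in steps far smaller than those under 200 bp.

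**Figure D1:**
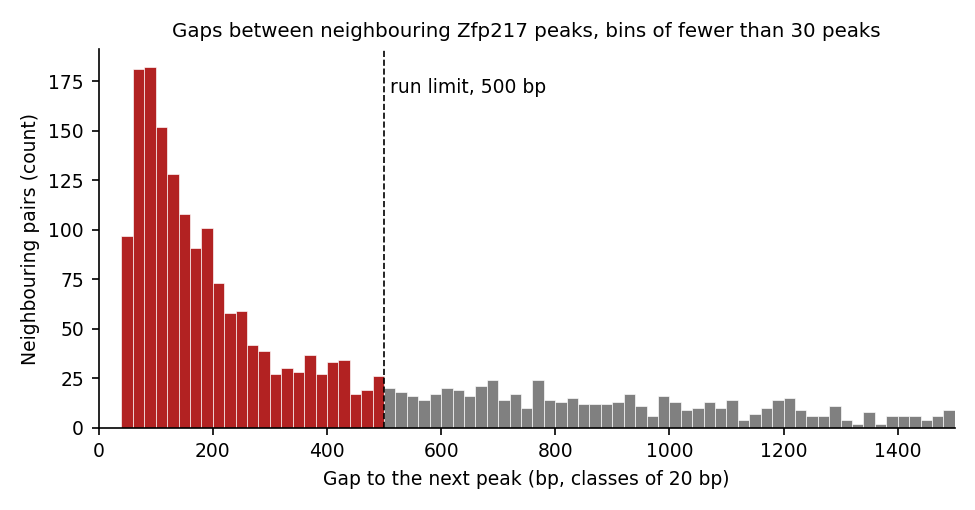
Gaps between neighbouring peaks in bins of fewer than 30 peaks, in classes of 20 bp (x axis, bp; y axis, number of neighbouring pairs). Red bars are gaps inside runs and grey bars are longer gaps, drawn up to 1500 bp. The counts begin at 52 bp, are highest under 100 bp and fall slowly across the dashed line at 500 bp.

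The runs just inside the limit and the pairs just outside it are given for comparison. On chromosome 14, a run of 3 peaks from 7721334 to 7722713 had a gap of 500 bp and another of 193 bp. A run on chromosome 2 from 86206388 to 86208142 had gaps of 340 and 499 bp. A pair on chromosome 1 from 137043095 to 137044336, with peaks of 506 and 238 bp, had a gap of 498 bp. Outside the limit, the nearest pairs had gaps of 503, 503 and 504 bp. They lay on chromosome 4 from 135841277 to 135842188 with peaks of 231 and 178 bp, on chromosome 7 from 6314992 to 6316186 with peaks of 267 and 425 bp, and on chromosome 14 from 68333239 to 68334418 with peaks of 307 and 369 bp. At the limit on bins, the 8 bins of 29 peaks held 29 runs with 25% of their peaks (19.6 to 31.1), and the 6 bins of 30 peaks held 23 runs with 26.7% (20.4 to 33.8).

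A typical run was less than 1 kb long and mostly covered by its peaks. The median span, from the start of the first peak to the end of the last, was 808 bp (789 to 823), and the middle 50% lay between 653.5 and 1019 bp. A span over 1000 bp was found in 375 runs (26.0%) and one over 2000 bp in 20 runs. Peaks covered a median of 80.2% of the span (79.2 to 81.0). Of all runs, 144 were covered to over 90% and 20 to under 50%. The runs together spanned 1283 kb and their peaks covered 989 kb of it, or 77.0%. Runs of 3 peaks were longer and more open than pairs. Their median span was 1363 bp (1291 to 1457) against 779.5 bp (762 to 798), and their median cover 71.0% (67.8 to 74.1) against 81.0% (80.1 to 81.5). A run of 3 peaks holds a further peak and a further gap, so its longer span follows from the count. Gaps per peak also rise with the count, which by itself lowers the cover. The 13 runs of 4 peaks had a median span of 1805 bp and the 3 runs of 5 peaks spanned 2045, 2643 and 3530 bp.

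The 3 runs of 5 peaks differed in how full they were. The longest of them lay on chromosome 19 from 23207757 to 23211286, with peaks of 204, 700, 737, 553 and 611 bp and gaps of 113 to 275 bp, and its peaks covered 79.5% of 3530 bp. On chromosome 16, from 4558441 to 4561083, peaks of 475, 231, 268, 302 and 388 bp covered 63.0% of the run. On chromosome 6, from 108608766 to 108610810, peaks of 171, 174, 352, 247 and 215 bp covered 56.7%, and the next peak followed after 744 bp. The chromosome 19 run was made of wide peaks apart from the one at its start, whereas the chromosome 6 run had no peak wider than 352 bp. Among the runs of 4, the longest, on chromosome 7, reached from 3217548 to 3222356, where peaks of 2109, 465, 1059 and 381 bp covered 83.5% of 4809 bp. After it came one on chromosome 17 from 36053168 to 36056209, which had peaks of 283, 190, 1637 and 329 bp.

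The longest run of all had 3 peaks. It lay on chromosome 17 from 39980045 to 39985771, where peaks of 4271, 787 and 411 bp with gaps of 160 and 98 bp covered 95.5% of 5727 bp. It stood apart from other peaks, with 952 kb to the previous peak and 693 kb to the next, in a bin of 4 peaks. It also held the widest peak of any run. The next widest were the 2109 bp peak of the chromosome 7 run of 4 peaks and a peak of 1891 bp on chromosome 12. At the other end, the shortest run spanned 373 bp on chromosome 19 from 21865619 to 21865991, with 2 peaks of 157 bp, the narrowest width in the list, and a gap of 59 bp. The next shortest were on chromosome 9 from 75289019 to 75289413, with peaks of 165 and 168 bp, and on chromosome 3 from 39501181 to 39501577, with peaks of 162 and 160 bp.

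**Figure D2:**
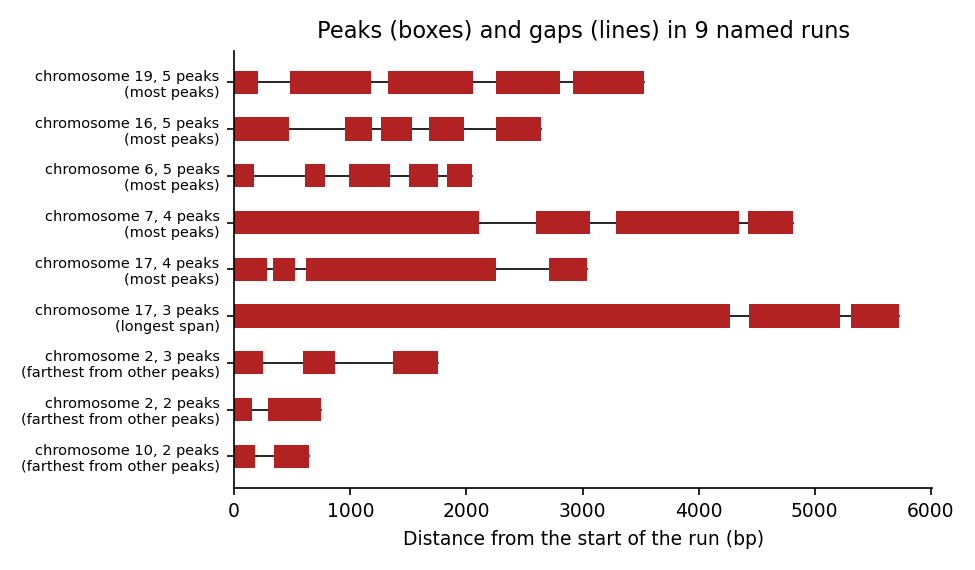
Layout of 9 named runs, those with most peaks, the longest spans and the greatest distance from other peaks (x axis, distance from the start of the run in bp; 1 row per run). Boxes are peaks and lines are gaps, to scale. The chromosome 17 run of 3 peaks is mostly 1 peak of 4271 bp, while the runs of 5 peaks are made of peaks between 171 and 737 bp.

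Peaks inside runs were narrower than single peaks. The median width was 286 bp (280 to 291, n = 3032 peaks) in runs against 335 bp (331 to 340, n = 11560) for single peaks, a difference of -49 bp. The intervals did not overlap, but they take the peaks of 1 library as independent, so the difference is given as a description. Replicates to test it were not available here, and width is not independent of the gap rule. The difference was present at each level of bin occupancy. In bins of 1 to 4 peaks the medians were 251 bp (237 to 276) in runs and 278 bp (271 to 287) for single peaks, with intervals that overlap. In bins of 20 to 29 peaks they were 289 bp (280 to 300) and 347 bp (337 to 356), without overlap. In the bins of 30 or more peaks that were set aside, the medians were 309 and 348 bp, a difference of -39 bp.

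The difference in width came mainly from peaks of 400 to 699 bp. They made up 34.4% of single peaks (33.5 to 35.3) but 19.1% of peaks in runs (17.7 to 20.6). Single peaks had a second rise in their width distribution, with 8.93% of them at 450 to 500 bp against 8.04% at 350 to 400 bp. Peaks in runs had none there, with 3.79% at 450 to 500 bp against 8.05% at 350 to 400 bp. By width, 25.5% of the peaks 158 to 399 bp wide lay in a run (24.5 to 26.4), against 12.7% of those 400 to 699 bp wide (11.8 to 13.7). The share was lowest among well filled classes at 450 to 499 bp, with 10.0% (8.35 to 11.9, 115 of 1147 peaks). Classes of 50 bp from 800 to 949 bp had shares of 7.84 to 9.26%, but with only 51 to 105 peaks each. Peaks of 157 bp, the narrowest width, lay in a run in 19.6% of cases (16.4 to 23.1), and those of 700 to 999 bp in 12.5% (9.78 to 15.7). Peaks of 1000 bp or more lay in a run in 25 of 105 cases (23.8%, 16.0 to 33.1), nearer to the share of the narrow peaks.

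**Figure D3:**
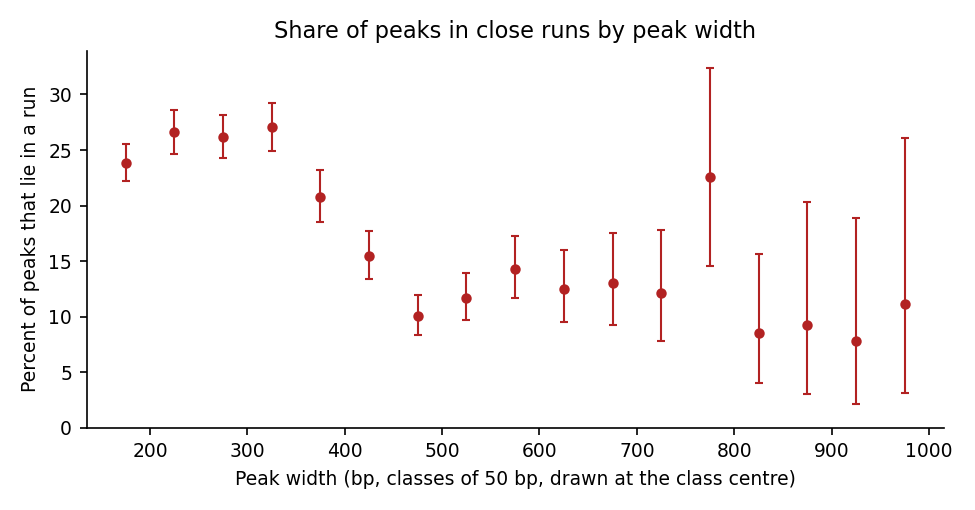
Percent of peaks that lie in a run, by peak width in classes of 50 bp (x axis, bp; y axis, percent). Points are shares and bars are exact 95% intervals, covering counting error only. The share is 23.8 to 27.1% up to 349 bp, falls to 10.0% at 450 to 499 bp, and is imprecise above 750 bp where classes hold few peaks.

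Added together, the peaks of a pair covered about as much as a wide single peak. Both widths summed to a median of 598.5 bp (585 to 611, n = 1316 pairs), and 60.6% of pairs (57.9 to 63.3) covered 400 to 699 bp in sum. A sum of 2 widths cannot fall under 314 bp in this list, since no peak is narrower than 157 bp. Any 2 peaks near the median width in runs, 286 bp, also add to a value in this range. The likeness to wide single peaks is therefore a description only, and how pairs arose was not tested. The midpoints of a pair lay a median of 474 bp apart (464 to 482). The total covered changed little with the gap at first and then rose. Pairs with gaps of up to 100 bp covered a median of 574.5 bp (n = 374), those with gaps over 200 and up to 300 bp covered 596 bp (n = 230), and those with gaps over 400 and up to 500 bp covered 679 bp (n = 97). That rise was in the wider peak of the pair, with medians of 328, 346 and 433 bp in the same classes, while the narrower peak had medians of 219, 223.5 and 218 bp. Across the 1316 pairs, gap and covered length had a Spearman's rho of 0.11 and a Pearson's r of 0.14, given as a description, since pairs come from 1 library and share its depth.

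**Figure D4:**
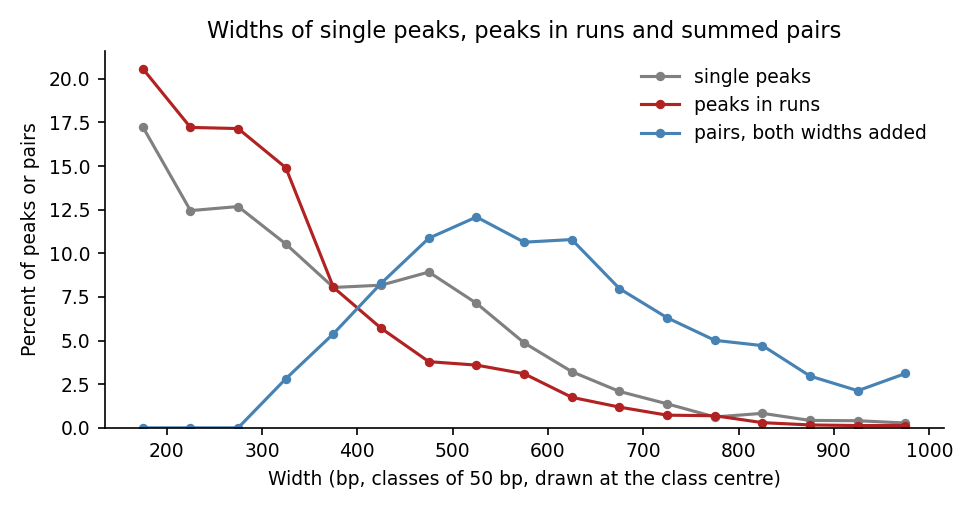
Width distributions in classes of 50 bp (x axis, bp; y axis, percent of peaks or pairs), for single peaks (grey), peaks in runs (red) and both widths of a pair added (blue), up to 1000 bp. Single peaks show a second rise at 450 to 500 bp (8.93%) that peaks in runs lack (3.79%), and the summed pairs are most frequent at 500 to 550 bp (12.1%).

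Widths inside pairs did not differ by order beyond counting error. In pairs, the first peak along the chromosome had a median width of 286.5 bp (279 to 296) and the second one of 285 bp (278 to 291). The first was the wider in 669 of the 1307 pairs of unequal width (51.2%, 48.4 to 53.9), an interval that includes 50%. Over all runs the first peak minus the last had a median of 5 bp (-2 to 13). Among the wider 50% of peaks it was 20 bp (2 to 41), an interval above 0. In the 111 runs of 3 peaks the medians were 283 bp (259 to 323) for the first, 280 bp (240 to 313) for the middle and 261 bp (215 to 302) for the last, with intervals that overlap throughout. The middle peak was the widest in 35 of these runs (31.5%, 23.0 to 41.0) and the narrowest in 38 (34.2%, 25.5 to 43.8), so no layout with a wide centre was seen. The first was the widest in 48 (43.2%, 33.9 to 53.0) and the last in 28 (25.2%, 17.5 to 34.4). Both counts come from the same 111 runs and exclude each other, so overlap of their intervals cannot compare them. The difference between first and last was not tested.

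The widths of the peaks of a pair were nearly unrelated. Those of the first and second peak had a Spearman's rho of 0.03 and a Pearson's r of -0.0018 across the 1316 pairs, given as a description. The wider peak of a pair had a median of 347 bp (340 to 356) and the narrower one of 226 bp (221 to 231). The wider was at most 1.5 times the narrower in 55.1% of pairs, over 2 times in 22.1% and over 3 times in 6.69%. The 3 most unequal pairs each joined a wide peak to one of 157 bp. They were on chromosome 12 from 55809980 to 55812498 (1891 and 157 bp, 12.0 times), on chromosome 13 from 21878070 to 21880043 (1732 and 157 bp, 11.0 times) and on chromosome 12 from 55829957 to 55831523 (1305 and 157 bp, 8.31 times). Peaks of 157 bp were about as frequent in runs (3.63%, 2.99 to 4.36) as among single peaks (3.91%, 3.56 to 4.28).

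Runs were spread over all 19 chromosomes, with 44 to 120 runs on each. The share of peaks in runs was highest on chromosome 11, with 24.6% (21.9 to 27.4, 236 of 961 peaks), and lowest on chromosome 15, with 16.4% (13.4 to 19.8, 89 of 543 peaks). These intervals did not overlap, but both chromosomes were picked as the extremes of 19. Median spans ran from 695.5 bp on chromosome 15 to 853 bp on chromosomes 7 and 12. Over the 19 chromosomes the share of peaks in runs had a Spearman's rho of 0.30 and a Pearson's r of 0.34 with peaks per Mb, as a description of points from 1 library.

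Counted by peaks, runs were more frequent in fuller bins. They held 14.5% of the peaks (13.0 to 16.0) in bins of 1 to 4 peaks and 24.1% (22.7 to 25.6) in bins of 20 to 29. A run adds its own peaks to the count of its bin, so bins were also ordered by separate regions, with a run counted as 1 region. Runs then made up 10.7% of regions (9.48 to 12.1) in bins of 1 to 4 regions, 11.3% (10.3 to 12.3) in bins of 5 to 9, 10.7% (9.54 to 12.0) in bins of 10 to 14, 12.2% (10.9 to 13.7) in bins of 15 to 19 and 10.4% (9.04 to 11.8) in bins of 20 to 29. All of these intervals overlap, so a rise by regions was not resolved in bins of up to 19 regions. The overlap does not show that there was none. The last class is limited by the rule, since bins of at most 29 peaks leave room for few runs among nearly 29 regions. In the bins of 30 or more peaks that were set aside, which were themselves chosen by peaks, 15.6% of regions were runs (14.3 to 16.9).

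Beyond their own ends, runs had somewhat longer distances than single peaks to the next peak, toward higher coordinates, but not to the previous peak. The median distance from the end of a run to the next peak was 67.9 kb (61.2 to 76.1, n = 1439 runs), against 56.3 kb (54.6 to 58.5, n = 11546) for single peaks, and these intervals did not overlap. With only the wider 50% of peaks kept, distances ran between those peaks alone. The run median was then the lower, 75.2 kb (56.5 to 95.9) against 78.2 kb (74.5 to 81.2) for single peaks, with intervals that overlap. Toward the previous peak the medians were 56.5 kb (51.5 to 64.8) and 57.8 kb (55.7 to 59.95), with intervals that overlap. Next and previous follow the coordinates only, so the longer distance was seen in a single direction and is given as a description. The nearest peak on either side lay a median of 30.5 kb from a run (28.2 to 32.9) and 27.0 kb from a single peak (26.2 to 27.9), again without overlap of the intervals. The next peak was over 100 kb away for 39.9% of runs (37.3 to 42.5) and 35.6% of single peaks (34.8 to 36.5). Another peak followed at 500 to 1000 bp after 3.54% of runs (2.65 to 4.63) and 2.94% of single peaks (2.64 to 3.27), and at 2 to 5 kb after 3.41% (2.53 to 4.48) and 4.65% (4.27 to 5.05). The region that followed was itself a run for 12.2% of runs (10.5 to 13.96) and 11.0% of single peaks (10.4 to 11.5), with intervals that overlap.

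Distances to the next peak were also compared within classes of bins, while those to the previous peak were not. In bins of 1 to 4, 5 to 9 and 10 to 14 peaks the next peak was farther from runs, with medians of 461, 124 and 73.7 kb against 322, 82.2 and 52.6 kb for single peaks and intervals that did not overlap. In bins of 15 to 19 and 20 to 29 peaks the ratios were 0.969 and 1.14, with intervals that overlap. A run takes up at least 2 of the peaks of its bin, which leaves fewer others around it, so the classes were also formed by separate regions. In bins of 5 to 9 regions the next peak lay a median of 94.4 kb (76.5 to 107.6) after a run and 76.8 kb (71.9 to 81.4) after a single peak, and in bins of 10 to 14 regions 58.9 kb (48.6 to 74.0) and 46.2 kb (43.7 to 49.4). In bins of 15 to 19 regions the medians were 31.3 kb (26.7 to 41.0) and 33.9 kb (32.8 to 36.5), the only class in which the run value was the lower. The ratio of the medians ran from 0.923 to 1.28 over the 5 classes, and the intervals overlapped in each, unlike those over all bins. Each class held fewer runs than all bins together, so the overlap does not show that the difference was absent.

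**Figure D5:**
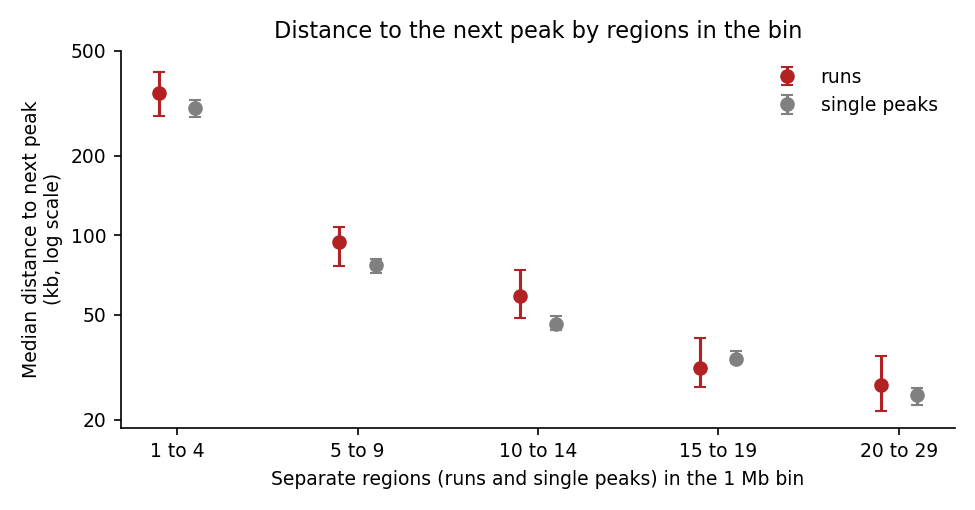
Median distance to the next peak (y axis, kb, log scale) from the end of a run (red) or single peak (grey), by the number of separate regions in the 1 Mb bin (x axis). Bars are 95% order-statistic intervals of the median. Values fall from 346 and 303 kb in bins of 1 to 4 regions to 27.0 and 24.7 kb in bins of 20 to 29, and the intervals of runs and single peaks overlap in each class.

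Some runs lay far from any other peak. The most remote was the run of 3 peaks on chromosome 2 from 86206388 to 86208142, with 1318 kb to the previous peak and 4212 kb to the next. Its peaks of 250, 277 and 389 bp were the only 3 of its bin. A pair on chromosome 2 from 41939168 to 41939911, with peaks of 157 and 449 bp, had 1172 and 2089 kb of free sequence around it. A pair on chromosome 10 from 32542728 to 32543373, with peaks of 178 and 302 bp, had 1377 and 1064 kb. Each of these runs held all peaks of its 1 Mb bin.

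Other runs lay side by side. Of the 2051 occupied bins of fewer than 30 peaks, 881 held at least 1 run, 531 of them exactly 1 and 212 exactly 2. The most was 7 runs, in the bin of chromosome 12 between 55 and 56 Mb, which was named after its value was seen. Of its 26 peaks, 15 lay in these 7 runs, between 55796548 and 55837753. The spans there ran from 689 to 2519 bp. The bin held 2 of the 3 most unequal pairs and the run with the highest cover of all, 97.4%, from 55834250 to 55836463 with peaks of 284 and 1872 bp. The run with the lowest cover, 39.6%, was a pair on chromosome 2 from 56651407 to 56652202, with peaks of 157 and 158 bp and a gap of 481 bp. Both of these runs were also chosen after their values were seen.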

How the data were processed

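ChIP-seq of Zfp217 and an input library of CCE cells were described by 1 deposited list of peaks. The authors deposited the chromosome, start, end and name of each peak, with starts counted from 0; they are printed here counted from 1. The submitters' processing notes list CASAVA 1.4, Bowtie2, MACS2 and mm9, with no roles. The calling threshold, duplicate handling and use of the input are unstated in the labels and the file. Peak names are numbered with no number missing. The list has no scores and no counts, so read depth is unknown.

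From these positions, width, gap, 1 Mb bin and run were computed with Python 3.11.15, numpy 2.4.6, pandas 2.3.3 and scipy 1.17.1, and drawn with matplotlib 3.10.9. The run search was tested on simulated data. A distance to the next peak was missing for the last region of a chromosome (4 runs and 14 single peaks). No test was run. Named regions followed a fixed rule: runs with most peaks, longest or shortest span, most unequal or widest peaks, greatest distance from others, and gaps next to the limit; the 46 runs of chromosome 18 were counted but not named. The members and the rule were chosen with earlier results of these data known. Alternatives were other gap limits, bin limits and bin starts, and lists without narrow peaks. No sequence was read, since no genome of mm9 was used here.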

Additional observations from a re-analysis of the deposited data

Results flagged for a closer look

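Peaks outside chromosomes 1 to 19 entered none of the values above, and they held close runs as well. Chromosome X had 60 runs in bins of fewer than 30 peaks, with 126 of 560 peaks (22.5%, exact 95% interval 19.1 to 26.2), a median span of 776 bp and a median cover of 71.1%. Widths there had a median of 247.5 bp in runs and 282.5 bp for single peaks. Chromosomes Y and M and the unplaced contigs had 9 runs with 19 of 98 peaks (19.4%, 12.1 to 28.6) and a median span of 786 bp. Both numbers are listed because they pass 3, the limit for a count of 0, which does not bear on binding.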

How the results depend on the processing

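The 8 summary values were recomputed under 7 alternatives. Of the 56 values, 34 stayed within the interval of the reported value (a count, within 1.5 times), 22 moved and no difference in width changed sign. With gaps of at most 250 bp, 93.9% of runs were pairs, the median span was 742 bp, the median cover 83.2% and the distance from a single peak to the next 53.5 kb. With gaps of up to 1000 bp these were 87.3%, 894.5 bp, 75.3% and 60.3 kb. In bins of fewer than 15 peaks there were 837 runs with a median span of 785 bp, and the next peak lay 119 kb from runs and 91.9 kb from single peaks. With no limit on peaks per bin the span was 825.5 bp and the distances 47.0 and 43.3 kb. Shifting the bins and leaving out the narrowest peaks moved none of the 8 values. The wider 50% of peaks left 275 runs, 93.8% of them pairs, with a median span of 1187 bp and a cover of 83.6%. Their width difference from single peaks was -34 bp. The first peak was wider than the last by a median of 20 bp (2 to 41, against -2 to 13 reported). The next peak lay 78.2 kb (74.5 to 81.2) from a single peak and 75.2 kb (56.5 to 95.9) from a run. This is the reverse of the reported order (56.3 and 67.9 kb), but the 2 intervals overlap and distances ran between the wider peaks only. Fewer peaks or bins entered under several of these settings; causes beyond that were not tested. With 1 list there was no replicate to leave out. No paired analysis was possible because the values come from no test between samples. Without depth, a missing peak inside or beside a run cannot be told from too few reads.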
